A study of Homo sapiens with 6 samples.

Results

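The 10 genes described here, ND1, ND2, ND3, ND4, ND5, CYTB, COX1, COX2, COX3 and ATP6, are encoded by the mitochondrial genome and specify core subunits of the respiratory chain and ATP synthase. They were chosen by symbol, as the rows of 2 deposited tables whose symbol equals one of these names, and all 10 were found among 33095 genes. The cells were MM.1S, an established human line of multiple myeloma, transduced with lentivirus carrying a scrambled control hairpin, IRF3 shRNA 1 or IRF3 shRNA 2. IRF3 is a transcription factor of the innate antiviral response, and the design asks what its depletion changes in these cells. RNA-seq after poly(A) selection gave 2 libraries per hairpin, 6 in all. Nothing in the labels ties the libraries of 1 hairpin to separate cultures, so p-values measure the spread between libraries, which may be technical.

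Human mitochondria carry a small circular genome that is transcribed from both strands into long precursors. All members are read from the heavy-strand precursor, which starts upstream of the 2 rRNA genes and is cut into single RNAs mainly at the tRNAs lying between the coding regions. The mRNAs then receive short poly(A) tails, which in several cases complete the stop codon. Complexes I, III, IV and V combine these products with many subunits encoded in the nucleus, whereas complex II is encoded by the nucleus alone.

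The 3' ends of the annotated transcripts are shown because poly(A) selection captures mRNAs by a tail at their 3' end. Where the tails began was not measured. The next heavy-strand gene starts well beyond the annotated end for COX1 (MT-TD at 7518), COX2 (MT-TK at 8295) and ND5 (CYTB at 14747). For these 3 the tail need not directly follow the bases shown. The last 30 bases of each annotated transcript are given in order along the heavy strand (GENCODE 29, GRCh38, plus strand), with the final codon, or the bases left over from the reading frame, in capitals.
ND1 (chrM:4233-4262): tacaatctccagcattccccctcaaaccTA
ND2 (chrM:5482-5511): ctatctccccttttatactaataatcttaT
COX1 (chrM:7416-7445): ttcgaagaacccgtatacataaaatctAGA
COX2 (chrM:8240-8269): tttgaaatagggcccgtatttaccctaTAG
ATP6 (chrM:9178-9207): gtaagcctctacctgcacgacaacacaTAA
COX3 (chrM:9961-9990): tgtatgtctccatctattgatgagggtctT
ND3 (chrM:10375-10404): gactacaaaaaggattagactgaaccgaaT
ND4 (chrM:12108-12137): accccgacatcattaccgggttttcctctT
ND5 (chrM:14119-14148): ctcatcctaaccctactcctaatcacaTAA
CYTB (chrM:15858-15887): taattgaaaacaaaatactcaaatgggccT
In 6 members (ND1, ND2, COX3, ND3, ND4 and CYTB) the annotated transcript ends within its stop codon, after TA in ND1 and after T in the other 5. The other 4 end on a whole codon, which is TAA in ATP6 and ND5, TAG in COX2 and AGA in COX1. In the annotation the last base of ATP6 (chrM:9207) is also the first base of COX3, and which of these mRNAs carried it was not measured.

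The deposited tables hold, for each gene, a mean normalised count over all 6 libraries, each hairpin's log2 fold change over scramble with a standard error (SE), and p-values from DESeq2. Single libraries have no values there, and their depths are unknown. Group means printed below were reconstructed from the overall mean and both fold changes, and they carry no standard deviation. IRF3 itself stood at -1.53 ± 0.10 (SE, DESeq2 adjusted p 8.45e-46) under shRNA 1 and at -0.18 ± 0.10 (SE, adjusted p 0.181) under shRNA 2, as log2 fold changes of the authors' deposited tables. Directions for shRNA 2 are therefore those of the libraries labelled shRNA 2, whose IRF3 mRNA did not pass the test. Of 9 plasma cell markers all were present, at means of 1665 to 31453. With shRNA 1, 6 of them were lower and 1 (SDC1) higher, beside 24.6% of all genes called. With shRNA 2, 7 were lower and 1 (CD38) higher, beside 29.0% of all genes called, per the authors' deposited tables. The summed reconstructed level of the 9 was 143274 in scramble, 105347 with shRNA 1 and 94531 with shRNA 2. Of 18 markers of other lineages 16 were listed, with a median mean of 8.79 and a highest mean of 116, and their summed level was 422, 536 and 338 in the same order. The part of these shifts in the results on the members was not tested.

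The members were among the most abundant transcripts of the cells. Together they made up 9.40% of the summed means, and 9 of the 10 stood among the 20 most abundant genes, the exception being ND3 at rank 86. COX1, which holds the catalytic heme and copper centre of cytochrome c oxidase, had a mean of 878488 normalised counts, or 3.51% of the total. Per kilobase of annotated length, COX1 stood at 569707 normalised counts, followed by COX2 at 330405, ATP6 at 247686, COX3 at 222645, ND4 at 204329, ND1 at 162002, ND2 at 132212, ND5 at 120048, CYTB at 81868 and ND3 at 67028. The 3 complex IV genes and ATP6 thus had the 4 highest levels per kilobase and the complex III and complex I genes the 6 lowest. The smallest gap between neighbours in this order, from COX3 to ND4, was 0.12 on the log2 scale with an SE of 0.036 from the reconstructed dispersions. Every gap between neighbours exceeded its SE. Such an SE comes from the fitted dispersions, not from an observed spread of single libraries, and does not cover length or sequence bias. The order was identical in scramble and shRNA 2, and in shRNA 1 it differed by the exchange of ND2 and ND5. With shRNA 1 these 2 lay close together, at 116123 and 118197 per kilobase, and this exchange was not tested.

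**Figure D1:**
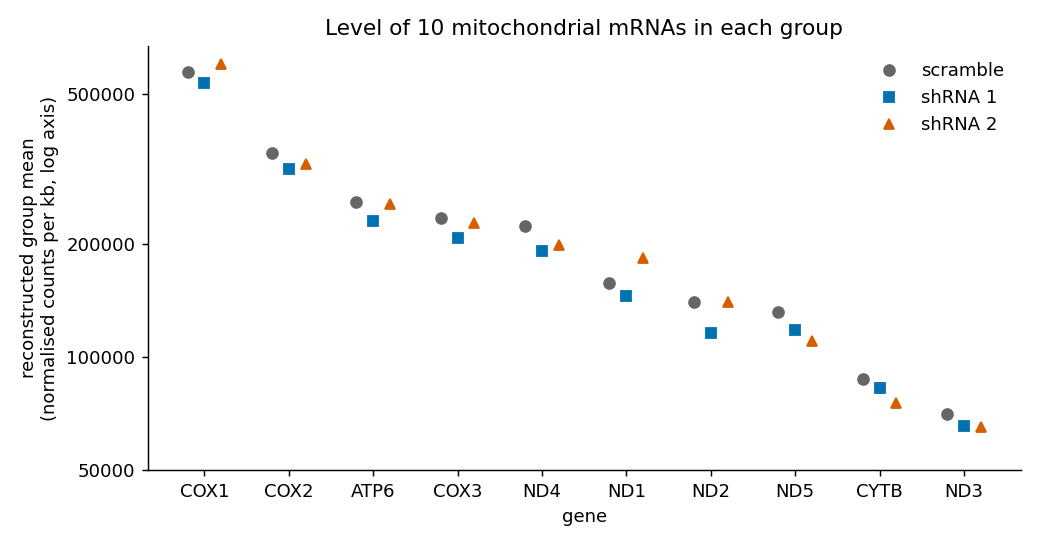
Reconstructed group mean of each member in normalised counts per kilobase (log axis) in scramble (circles), shRNA 1 (squares) and shRNA 2 (triangles), 2 libraries per group. COX1 is highest in every group, at 571990, 536009 and 601121, and ND3 lowest; no error bars are drawn because the tables hold no single libraries.

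With shRNA 1, all members lay below scramble by a small amount, and 4 of them passed the test. ND2, ND4, COX3 and ATP6 fell, and the other 6 had negative log2 fold changes that did not pass. Log2 fold changes ran from -0.27 to -0.08 and their median was -0.15 in the authors' deposited table, against a median of -0.03 over all 14488 genes with an adjusted p. At an adjusted p below 0.05, 24.6% of these genes were called, 9.80% as higher and 14.8% as lower, beside the 4 of 10 members. Among 98 nuclear genes with a mean of 20000 or more, whose SEs resemble those of the members, 51.0% were called, 39 as higher and 11 as lower, with a median of 0.14.

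With shRNA 2, the members did not move together. ND1 rose, ND4, ND5 and CYTB fell, and the other 6 did not pass, with log2 fold changes from -0.12 to 0.07 in the authors' deposited table. The 10 values spanned 0.48 on the log2 scale, from -0.25 to 0.23, compared with a span of 0.19 for shRNA 1. The median was -0.06, against -0.0026 over the 17054 genes with an adjusted p. Of all genes tested, 29.0% were called with shRNA 2, 10.9% as higher and 18.1% as lower, and of the 98 abundant nuclear genes 79.6%. The 4 of 10 members called in each comparison rest partly on adjusted p-values near the threshold. With the 3 scalings named below and the same genes tested, 2 or 3 of 10 were called with shRNA 1 and 2 of 10 with shRNA 2, beside 24.4% to 24.6% and 29.0% of all genes, so the share of members is not set apart from the background.

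**Figure D2:**
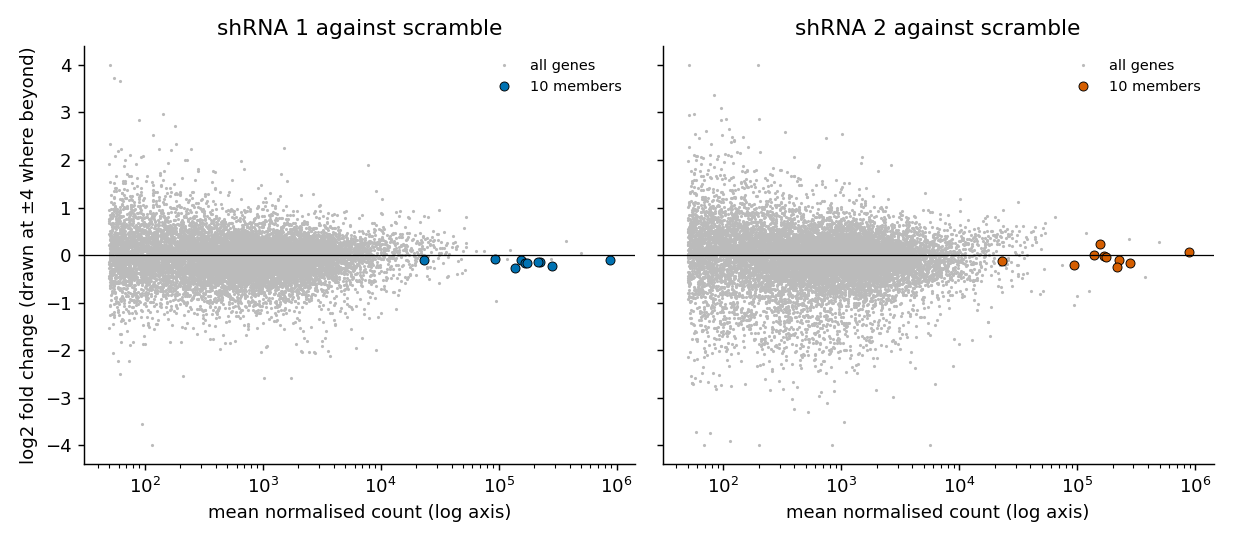
Log2 fold change against mean normalised count (log axis) for 12977 genes with a mean of 50 or more (grey) and the 10 members (coloured), one panel per hairpin. The members sit at the abundant end, all below 0 with shRNA 1 and between -0.25 and 0.23 with shRNA 2.

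Complex I (NADH dehydrogenase) passes electrons to ubiquinone and pumps protons, and its 5 members encode hydrophobic subunits of the membrane arm. ND1 (ENSG00000198888, chrM:3307-4262), next to the quinone site, had reconstructed means of 150053 in scramble, 138766 with shRNA 1 and 175803 with shRNA 2. It was the 1 member that rose in either comparison, at 0.23 ± 0.06 (SE, DESeq2 adjusted p 0.00201) on the log2 scale with shRNA 2, or 1.17 times scramble (95% interval 1.07 to 1.28), in the authors' deposited table. With shRNA 1 its value was -0.11 ± 0.06 (SE), adjusted p 0.207, in the authors' deposited table. ND2 (ENSG00000198763, chrM:4470-5511), one of the antiporter-like subunits, had reconstructed means of 146252, 121001 and 146042 in the same order. Its log2 fold change with shRNA 1 was -0.27 ± 0.06 (SE), with a DESeq2 adjusted p of 0.000183, or 0.827 times scramble (95% interval 0.759 to 0.902), in the authors' deposited table. This was the largest fall among the 10 members with shRNA 1, while with shRNA 2 ND2 stood at -0.0021 ± 0.06 (SE), adjusted p 0.990, in the authors' deposited table.

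ND3 (ENSG00000198840, chrM:10059-10404), which carries a loop near the quinone site, had reconstructed means of 24372 in scramble, 22705 with shRNA 1 and 22497 with shRNA 2. Neither comparison called it, at -0.10 ± 0.08 and -0.12 ± 0.07 (SE) with DESeq2 adjusted p-values of 0.365 and 0.273 in the authors' deposited tables. ND4 (ENSG00000198886, chrM:10760-12137), an antiporter-like subunit, had means of 307125, 263782 and 273787. It was the 1 member called in both comparisons, which share the scramble libraries, at -0.22 ± 0.06 (SE, adjusted p 0.00309) and -0.17 ± 0.06 (SE, adjusted p 0.0297) in the authors' deposited tables. ND5 (ENSG00000198786, chrM:12337-14148), the subunit at the far end of the membrane arm, had means of 238161, 214174 and 200245. With shRNA 2 it fell by 0.25 ± 0.06 (SE) on the log2 scale, with a DESeq2 adjusted p of 0.000691, or 0.841 times scramble (95% interval 0.770 to 0.918), in the authors' deposited table. With shRNA 1 the value was -0.15 ± 0.06 (SE), adjusted p 0.0663, in the authors' deposited table.

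CYTB (ENSG00000198727, chrM:14747-15887), the only mitochondrially encoded subunit of complex III and the one that holds its b hemes, had reconstructed means of 99849 in scramble, 94294 with shRNA 1 and 86093 with shRNA 2. The authors' deposited tables give -0.08 ± 0.08 (SE, DESeq2 adjusted p 0.537) with shRNA 1 and -0.21 ± 0.08 (SE, adjusted p 0.0332) with shRNA 2, so that it fell with shRNA 2. The calls of CYTB and ND4 with shRNA 2 were lost when the adjustment covered all 33095 genes without the authors' filter on low genes (adjusted p 0.0640 and 0.0573). They were also lost with the filter kept, when fold changes were recentred on the median gene or rescaled to the nuclear or the whole total, which gave -0.17 to -0.15 for CYTB (adjusted p 0.10 to 0.18) and -0.13 to -0.10 for ND4 (adjusted p 0.124 to 0.245). ND1 and ND5 stayed called in each of these settings.

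Complex IV (cytochrome c oxidase) reduces oxygen, and its catalytic core is formed by COX1, COX2 and COX3. COX1 (ENSG00000198804, chrM:5904-7445) had reconstructed means of 882009, 826527 and 926929 in scramble, shRNA 1 and shRNA 2. Its log2 fold changes were -0.09 ± 0.07 and 0.07 ± 0.07 (SE) in the authors' deposited tables, with DESeq2 adjusted p-values of 0.365 and 0.508. COX2 (ENSG00000198712, chrM:7586-8269), which receives electrons from cytochrome c through its copper centre, had means of 238244, 216366 and 223381. It passed in neither comparison, at -0.14 ± 0.06 (SE, adjusted p 0.0951) and -0.09 ± 0.06 (SE, adjusted p 0.302) in the authors' deposited tables. COX3 (ENSG00000198938, chrM:9207-9990) had means of 183103, 162033 and 178524. It fell with shRNA 1, at -0.18 ± 0.06 (SE, adjusted p 0.0273), and was at -0.04 ± 0.06 (SE, adjusted p 0.756) with shRNA 2, in the authors' deposited tables.

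ATP6 (ENSG00000198899, chrM:8527-9207), the proton channel subunit of ATP synthase, had reconstructed means of 176012 in scramble, 156632 with shRNA 1 and 173378 with shRNA 2. With shRNA 1 it fell, at -0.17 ± 0.07 (SE, DESeq2 adjusted p 0.0442), and with shRNA 2 it was at -0.02 ± 0.07 (SE, adjusted p 0.869), in the authors' deposited tables. Without the filter on low genes, ATP6 and COX3 lost the shRNA 1 call at unchanged fold changes (adjusted p 0.0996 and 0.0618). With the filter kept, the 3 scalings gave -0.15 to -0.13 for ATP6 (adjusted p 0.0751 to 0.158) and -0.16 to -0.13 for COX3 (adjusted p 0.0493 to 0.113), and COX3 stayed called under the nuclear total alone. ND2 and ND4 stayed called with shRNA 1 in each of these settings.

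The values with shRNA 2 followed the order of the genes along the heavy strand. ND1, the member nearest to the promoter, was highest, the genes from ND2 to COX3 lay between -0.09 and 0.07, and ND3, ND4, ND5 and CYTB, the 4 farthest, lay between -0.25 and -0.12. Across the 10 members the log2 fold change with shRNA 2 correlated with the start position at a Pearson r of -0.90 and a Spearman rho of -0.94, with a slope of -0.36 per 10 kb. With shRNA 1 the same values were an r of 0.24 and a rho of 0.15. These correlations describe 10 genes cut from 1 precursor and measured in the same libraries, and they do not change when every fold change is shifted by a constant. Without ND1 the r with shRNA 2 was -0.87, and with ATP8 and ND4L added it was -0.81 (12 mRNA genes). The r with the fold changes of shRNA 2 was -0.22 for gene length, 0.34 for GC content and 0.41 for level per kilobase. Position was chosen after its values were seen, so these values do not rank the properties. Across the members position itself correlated with these properties at 0.18, -0.15 and -0.45.

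**Figure D3:**
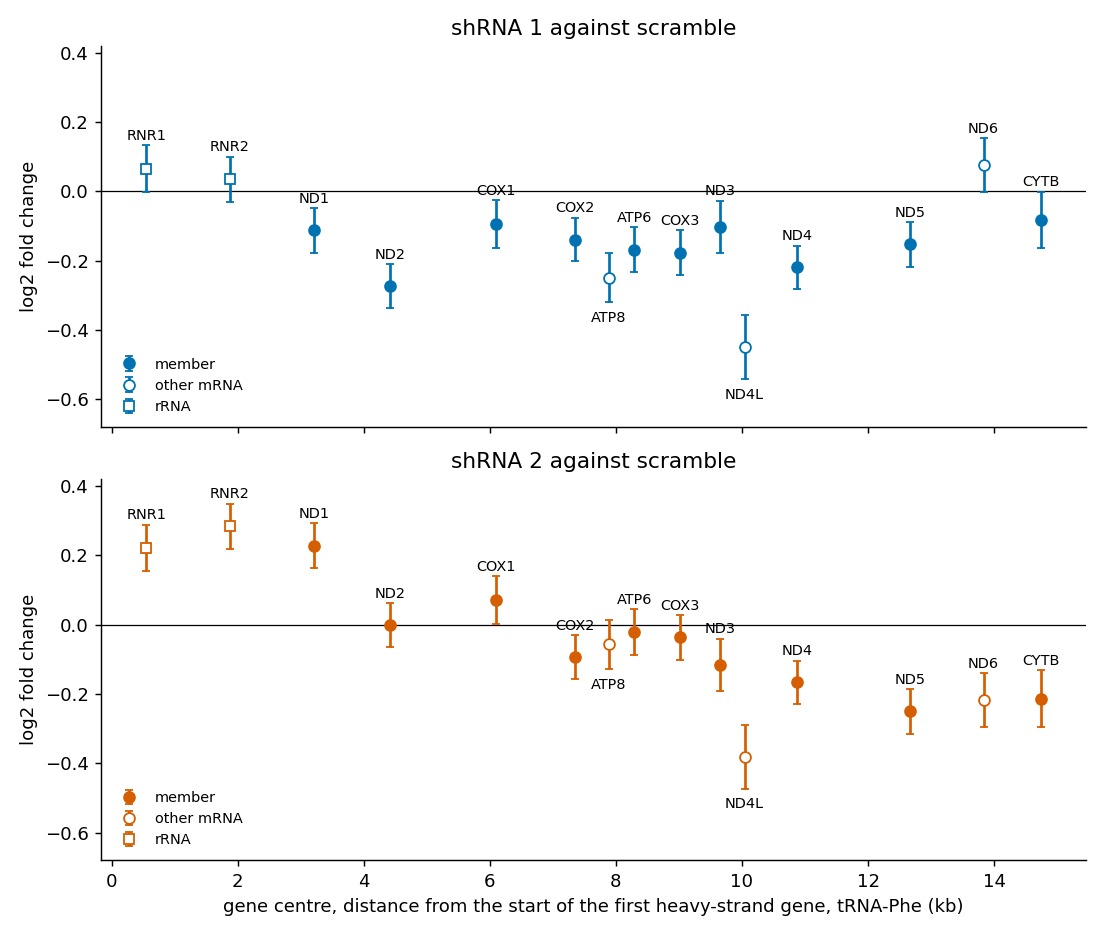
Log2 fold change ± SE against the distance of each gene's centre from the start of the first heavy-strand gene (kb) for the members (filled circles), the other 3 mRNAs (open circles) and the rRNAs (squares), 2 libraries per group. With shRNA 2 values run from 0.28 at RNR2 and 0.23 at ND1 to -0.25 at ND5, with ND4L lowest at -0.38, below its neighbours, while with shRNA 1 the members stay between -0.27 and -0.08 with no such order; ND6 is read from the opposite strand.

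A similar order appeared when the hairpins were set against each other. This comparison uses the same shRNA 2 values again, so it is not a second, independent observation of the order. The log2 difference, shRNA 2 minus shRNA 1, cancels the scramble mean. It was tested with a two-sided z over 14488 genes, from the fold changes of the authors' deposited tables, with Benjamini-Hochberg adjustment. ND1 was higher by 0.34 ± 0.09 (SE, z test adjusted p 0.00138) and ND2 by 0.27 ± 0.09 (SE, z test adjusted p 0.0140). These were the 2 members called, both as higher with shRNA 2, while 24.0% of all genes were called and 10.1% as higher. All 6 members from ND1 to COX3 had positive differences (median 0.16), and of the 4 from ND3 to CYTB 3 had negative ones (median -0.06). Over the 10 members the difference correlated with position at an r of -0.94 and a rho of -0.90. The SE used is too large because both fold changes contain the scramble libraries; with an SE reconstructed from the dispersions, COX1 was called as well (0.17 ± 0.07, adjusted p 0.0426), giving 3 of 10 members beside 39.4% of all genes.

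**Figure D4:**
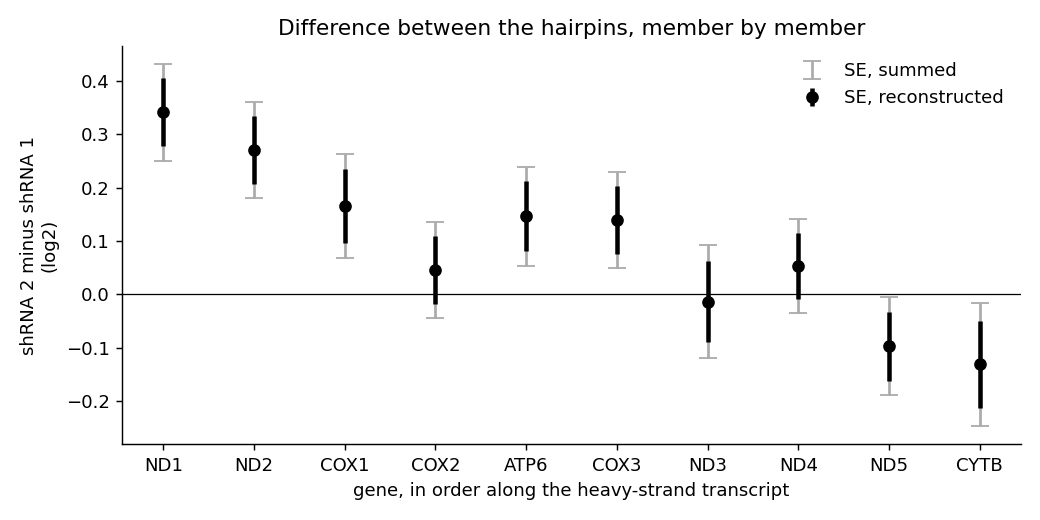
Difference in log2 level, shRNA 2 minus shRNA 1, for each member in order along the heavy strand. Thin bars are the SE from the summed squared SEs and thick bars the SE from reconstructed dispersions; values run from 0.34 at ND1 to -0.13 at CYTB.

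Ratios between members do not change with the scaling of whole libraries. ND1 stood at 0.630 times ND5 in scramble, 0.648 times with shRNA 1 and 0.878 times with shRNA 2 in reconstructed counts. ND1 over CYTB was 1.503 in scramble, 1.472 with shRNA 1 and 2.042 with shRNA 2. In these ratios scramble and shRNA 1 lay close together. ND2 over ND5 was 0.614 in scramble, 0.565 with shRNA 1 and 0.729 with shRNA 2, so that here the hairpins lay on opposite sides of scramble. COX1 over ND5 was 3.70, 3.86 and 4.63 in the same order. All 4 ratios were highest with the libraries labelled shRNA 2, and none was tested. The pairs were chosen after their values were seen.

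The rest of the mitochondrial genome was described by the same tables. The rRNA genes RNR2 (mean 497446) and RNR1 (mean 26628), which lie upstream of ND1, rose with shRNA 2, at 0.28 ± 0.07 (SE, DESeq2 adjusted p 0.000114) and 0.22 ± 0.07 (SE, adjusted p 0.00534) in the authors' deposited table. With shRNA 1 they were at 0.03 and 0.07 (adjusted p 0.777 and 0.557), per the authors' deposited table. Per kilobase, RNR2 stood at 319080 normalised counts and RNR1 at 27911. How well poly(A) selection captured either rRNA was not measured, so these counts need not follow their amounts. Addition of both rRNAs gave an r with position of -0.89 for shRNA 2 over 14 genes, and of -0.46 for shRNA 1. MT-TL1, the leucine tRNA between RNR2 and ND1, was at 1.18 ± 0.24 (SE, adjusted p 1.39e-05) with shRNA 2 and at -0.43 ± 0.25 (SE, adjusted p 0.228) with shRNA 1 in the authors' deposited tables. Of 22 tRNA genes, 21 had an adjusted p with shRNA 2, of which 4 rose and none fell, and 11 with shRNA 1, of which none was called, per the authors' deposited tables. The called share of tRNA genes with shRNA 2, 19.0%, was below the 29.0% of all genes. With shRNA 1, 24.6% of all genes were called. Only 8 tRNA genes had a mean of 200 or more, and mature tRNAs are shorter than the fragments usually sequenced and are poorly captured by poly(A) selection.

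ND4L (mean 37275), whose coding region shares 7 bases (ATGCTAA, from the start codon of ND4 to the stop codon of ND4L) with that of ND4 on a common mRNA, fell in both comparisons, at -0.45 ± 0.09 (SE, DESeq2 adjusted p 1.53e-05) and -0.38 ± 0.09 (SE, adjusted p 0.000240) in the authors' deposited tables. ATP8 (mean 26050), which shares 46 bases and a common mRNA with ATP6, fell with shRNA 1, at -0.25 ± 0.07 (SE, adjusted p 0.00297), and stood at -0.06 ± 0.07 (SE, adjusted p 0.631) with shRNA 2, in the authors' deposited tables. Reads from the shared bases cannot be assigned to 1 gene. ND6 (mean 74778), the complex I subunit read from the opposite strand, was at 0.08 ± 0.08 (SE, adjusted p 0.550) with shRNA 1 and fell with shRNA 2, at -0.22 ± 0.08 (SE, adjusted p 0.0214), in the authors' deposited tables. Its difference between the hairpins was -0.29 ± 0.11 (SE), with an adjusted p of 0.0349 in the z test. Whether the counting used strand is not known here, and if it did not, reads of ND6 and of the antisense heavy-strand precursor cannot be told apart.

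All mitochondrial genes together made up 12.1% of the reconstructed counts in scramble, 11.4% with shRNA 1 and 12.7% with shRNA 2. The members' share was 9.57%, 8.84% and 9.79%, and that of the rRNA genes 1.90%, 1.99% and 2.40%. Against scramble, the higher total with shRNA 2 lay more in the rRNAs than in the members, and against shRNA 1 more in the members than in the rRNAs. These shares carry no test, and the capture of rRNAs by poly(A) selection was not measured. In bulk RNA, fewer mitochondrial transcripts per cell and a change in the amount of nuclear RNA cannot be told apart.

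Nuclear copies of mitochondrial sequence can take reads from the members. The tables list 76 annotated pseudogene copies of the 10 genes, of which 6 had a mean of 50 or more. The most abundant was MTATP6P1 (chr1:633696-634376, mean 24578), identical to ATP6 at 671 of 681 aligned bases, and its level was 14.6% of that of ATP6. Its log2 fold changes, -0.26 ± 0.07 (SE, DESeq2 adjusted p 0.00118) and -0.07 ± 0.07 (SE, adjusted p 0.503) in the authors' deposited tables, lay near those of ATP6, and summing the copies with ATP6 gave -0.18 and -0.03. MTND2P28 (chr1:629640-630683, mean 5636), identical to ND2 at 1025 of 1042 aligned bases, reached 4.09% of ND2. The next, MTND4P12, reached 0.683% of ND4, and for the other members the leading copy was below this share. Summing copies moved no member's fold change by more than 0.012 on the log2 scale.

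Many nuclear subunits of the same complexes fell with shRNA 2, and none rose. Of 80 nuclear subunits of complexes I to V, 16 were lower and 5 higher with shRNA 1, and 44 were lower and 0 higher with shRNA 2, per the authors' deposited tables, with median log2 fold changes of -0.09 and -0.35. Of all genes, 24.6% were called with shRNA 1, a share close to that of the subunits. With shRNA 2, 29.0% of all genes were called in either direction, and 18.1% of all genes were called as lower. For complex I, 20 of 37 nuclear subunits were lower and 0 higher with shRNA 2 (6 and 2 with shRNA 1), with a median of -0.34 beside -0.12 for its 5 members. For complex IV, 9 of 12 were lower with shRNA 2 (1 lower and 1 higher with shRNA 1), with a median of -0.54, while 0 of the 3 members passed. COX6A1, a small subunit on the outer face of complex IV, was at -0.98 ± 0.10 (SE, DESeq2 adjusted p 2.56e-19) with shRNA 2 and at -0.09 ± 0.10 (SE, adjusted p 0.595) with shRNA 1 in the authors' deposited tables. Complex III had 5 of 9 nuclear subunits lower with shRNA 2 (4 lower and 1 higher with shRNA 1), and complex V had 10 of 18 (4 and 1). UQCRC1, a core subunit of complex III, and ATP5F1B, the catalytic subunit of ATP synthase, fell in both comparisons, at -0.57 and -0.53 for UQCRC1 and at -0.39 and -0.53 for ATP5F1B in the authors' deposited tables. None of the 4 subunits of complex II, which has no mitochondrially encoded part, was called with shRNA 2, and 1 (SDHD, at -0.26 ± 0.10) was lower with shRNA 1, per the authors' deposited tables.

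**Figure D5:**
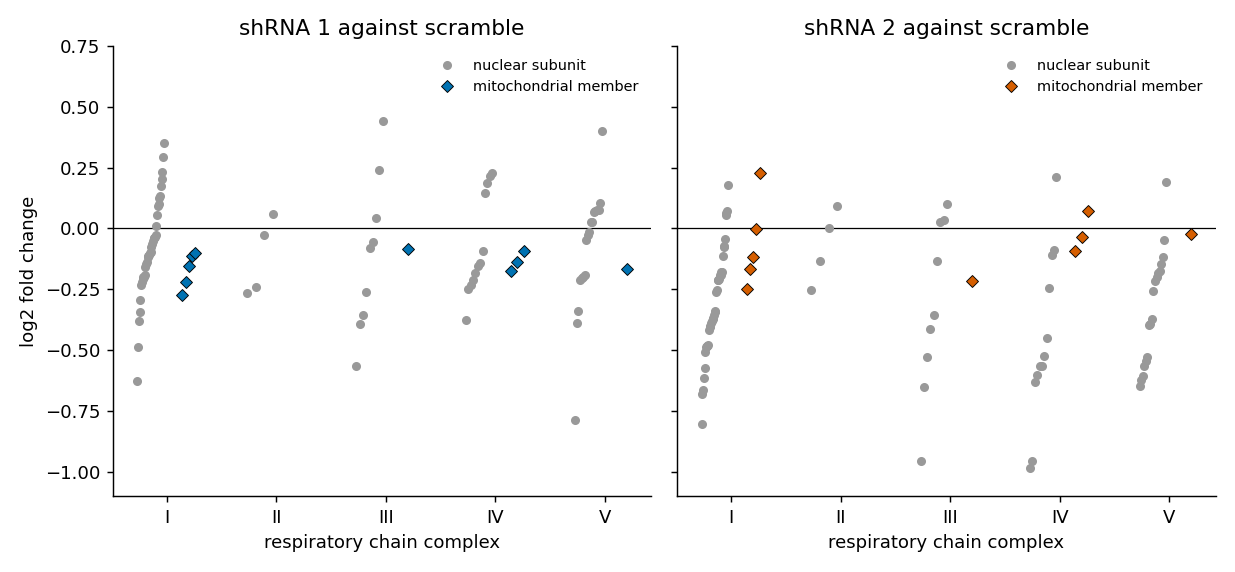
Log2 fold change of nuclear subunits (grey circles) and mitochondrially encoded members (coloured diamonds) by complex, one panel per hairpin. With shRNA 2 the nuclear subunits of complexes I, III, IV and V reach -0.98 (COX6A1), while the members stay between -0.25 and 0.23.

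Factors that make and maintain mitochondrial RNA moved in few cases. Of 9 transcription factors and termination factors of the mitochondrial genome, the authors' deposited tables call 0 with shRNA 1 and 2 with shRNA 2, 1 in each direction. TFAM, which packages mitochondrial DNA and activates its promoters, fell with shRNA 2, at -0.85 ± 0.11 (SE, DESeq2 adjusted p 2.51e-12), and was at 0.12 ± 0.11 (SE, adjusted p 0.511) with shRNA 1, in the authors' deposited tables. The difference between hairpins in TFAM was -0.97 ± 0.16 (SE, z test adjusted p 4.13e-08). TFB2M, the promoter-melting partner of the mitochondrial RNA polymerase, rose with shRNA 2, at 0.30 ± 0.12 (SE, adjusted p 0.0485), in the authors' deposited table. Of 27 RNA processing and stability genes, 1 was higher and 4 lower with shRNA 1, and 1 higher and 2 lower with shRNA 2, shares below those of all genes tested. FASTKD1, an RNA-binding protein that affects the level of ND3 mRNA, fell with shRNA 1, at -0.48 ± 0.12 (SE, adjusted p 0.000531), in the authors' deposited table.

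The counts of the next 4 lists stand beside 24.6% of all genes called with shRNA 1 (14.8% lower) and 29.0% with shRNA 2 (18.1% lower). Genes of mitochondrial DNA replication and upkeep were lower in 3 and higher in 1 of 19 cases with shRNA 1, and lower in 7 and higher in 3 with shRNA 2, per the authors' deposited tables. TOP1MT, the mitochondrial type I topoisomerase, fell with shRNA 1 and rose with shRNA 2, at -0.35 ± 0.11 (SE, DESeq2 adjusted p 0.00689) and 0.75 ± 0.10 (SE, adjusted p 1.75e-11) in the authors' deposited tables. Translation factors of the organelle were lower in 3 of 13 cases with shRNA 1 and 1 with shRNA 2, higher in 0, led by GFM2 at -0.68 ± 0.13 (SE, adjusted p 1.73e-06) with shRNA 1 in the authors' deposited table. Mitochondrial tRNA synthetases and amidotransferase subunits numbered 20, of which 6 were lower and 1 higher with shRNA 1, and 3 lower and 1 higher with shRNA 2. Of 9 regulators of mitochondrial biogenesis, 2 were lower and 1 higher in each comparison. ESRRA, a nuclear receptor that drives respiratory genes, fell in both, at -0.96 ± 0.13 and -0.46 ± 0.13 (SE), with DESeq2 adjusted p-values of 7.81e-12 and 0.00229, in the authors' deposited tables. Its coactivator PPARGC1A fell with shRNA 1, at -1.16 ± 0.21 (SE, adjusted p 4.75e-07), in the authors' deposited table.

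For the next 3 lists the share of all genes called was again 24.6% with shRNA 1 and 29.0% with shRNA 2. For the first 2 of them the counts were near or below it. Assembly factors of the complexes were lower in 8 and higher in 2 of 46 cases with shRNA 1, and lower in 9 and higher in 2 with shRNA 2. COX14, which stabilises newly made COX1, was at -1.85 ± 0.19 (SE, DESeq2 adjusted p 3.56e-20) with shRNA 1 and at 0.14 ± 0.18 (SE, adjusted p 0.631) with shRNA 2 in the authors' deposited tables. Mitochondrial chaperones and proteases were lower in 3 and higher in 1 of 16 cases with shRNA 1, and lower in 4 and higher in 1 with shRNA 2. LONP1, the matrix protease that degrades TFAM among other proteins, fell in both, at -0.50 ± 0.09 and -0.40 ± 0.09 (SE) in the authors' deposited tables. Apoptosis and stress genes numbered 10, of which shRNA 1 had 6 higher and 0 lower and shRNA 2 had 5 higher and 2 lower, with medians of 0.51 and 0.36. HMOX1, the heme oxygenase induced by oxidative stress, was at 0.98 ± 0.16 (SE) in both of the authors' deposited tables. The part of these genes in the members' values was not tested.

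Measured by distance between pairs of fold changes, the nuclear genes most like the median member (-0.15 and -0.06) were DMAP1, OSBPL9, UBE2R2, ATF2 and SNHG12, among 5075 genes with a mean of 1000 or more. Such likeness over 2 comparisons is weak, since 215 genes lay within 0.1 of that point.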

How the data were processed

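RNA of 6 libraries of MM.1S cells, 2 per hairpin, was compared in 2 deposited tables. Salmon 0.12.0, DESeq2 1.24.0 and GRCh38 are named in the submitters' processing notes; their settings, and the strand of counting, are not stated in any source used here. Per the file headers, the deposited signal is a normalised read count averaged over all 6 libraries. Log2 fold changes with SEs, the Wald score, p-values and adjusted p-values are those the authors deposited. Means were identical in both tables, as in 1 fit of all libraries. The main test is the authors' DESeq2 adjusted p below 0.05 over all genes that carry one.

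Scramble means were reconstructed as 3 times the mean over 1 plus both ratios, and dispersions from the SEs. The coding, hairpin over scramble, was checked on dispersions of 951 genes, whose median absolute log ratio between tables was 0.00830 as coded and 0.194, 0.106 and 0.146 with the second, the first or both tables turned. Differences between hairpins were tested by a two-sided z with Benjamini-Hochberg adjustment (scipy 1.17.1). A run on simulated counts used the same SE formula and fold changes larger than those of the members. It therefore does not show how the test performs for changes as small as theirs. Coordinates and sequences come from GENCODE 29; all 33095 identifiers matched. Copies were aligned with Biopython 1.88. Correlations are descriptions.

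The members and gene lists were chosen with earlier results of these data known. Named genes are the members, the other mRNA and rRNA genes of the mitochondrial genome, IRF3, from each list up to 3 genes called in both comparisons and 2 called in 1 (lowest p), up to 3 pseudogene copies per member, and the 5 nearest nuclear genes; the text gives a selection of these. MT-TL1, the ratios between members and the position series were chosen after their values were seen. Alternatives covered the threshold, a minimum fold change, the filter on low genes, 3 scalings, the SE of the difference and the choice of genes.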

Additional observations from a re-analysis of the deposited data

Results flagged for a closer look

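Of the 10 members, 2 had effects that differed between the hairpins in the z test of the difference. Of all 14488 genes tested, 24.0% were called, so the count of members does not exceed the background. ND1 was higher with shRNA 2 than with shRNA 1 by 0.34 ± 0.09 (SE) on the log2 scale, with reconstructed means of 175803 and 138766 and an adjusted p of 0.00138. ND2 was higher with shRNA 2 than with shRNA 1 by 0.27 ± 0.09 (SE), with reconstructed means of 146042 and 121001 and an adjusted p of 0.0140. Both are the members nearest to the heavy-strand promoter. With the reconstructed SE the adjusted p-values of the z test were 8.31e-07 and 0.000108, and 39.4% of all genes were called. No value of a single library could be examined for outlying samples.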

How the results depend on the processing

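With shRNA 1, 4 members were called as reported, 2 at a threshold of 0.01, 1 with a minimum log2 fold change of 0.25, and 2 without the filter on low genes or under any of the 3 scalings (median gene, nuclear total, whole total). With shRNA 2 the counts were 4 as reported, 2 (1 higher, 1 lower) at 0.01, without the filter or under any scaling, and 1 (lower) with the minimum fold change. These scalings adjust over all genes. With the filter kept, an alternative chosen after seeing the data, they called 2, 3 and 2 members with shRNA 1 and 2 each with shRNA 2, so the filter and the scaling each lowered the counts when changed alone. The share of all genes called fell from 24.6% to 8.92% and from 29.0% to 13.3% without the filter. Between the hairpins, 2 members were called as reported (24.0% of all genes), 1 at a threshold of 0.01, 3 with the reconstructed SE (39.4% of all genes) and 2 after recentring. The median log2 fold change of the members with shRNA 2 was -0.06 as reported and 0.00066 rescaled to the nuclear total, so its sign is not determined. Of the 20 single fold changes, 16 kept their side of the threshold and 4 lost their call without the filter, alone or with any scaling; with the filter kept this was so for 2 scalings, and under the nuclear total 17 kept it and 3 lost their call. The mitochondrial share was 12.1%, 11.4% and 12.7% in scramble, shRNA 1 and shRNA 2, and 11.9%, 11.0% and 12.2% as mitochondrial mRNA over named nuclear genes. The r with position for shRNA 1 was 0.24 over the members, 0.0028 over 12 mRNAs and -0.46 with both rRNAs; these sets were chosen after seeing the data. No paired analysis was possible because the tables hold fold changes and no values of single libraries, for which reason no library was left out in turn either. The SEs of the members, 0.06 to 0.08, limit what can be called: the smallest change called was -0.17, for ND4 with shRNA 2. Depth per library is unknown.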
